A study of Homo sapiens with 18 samples.

Results

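The 9 genes studied code for enzymes of serine synthesis and of the folate one-carbon pathway. They were followed through 18 RNA-seq libraries labelled as A1847 ovarian cancer cells. The genes were PHGDH, PSAT1, PSPH, SHMT1, SHMT2, MTHFD1, MTHFD2, MTHFD1L and ALDH1L2. They were chosen by symbol for their place in the pathway, not for a measured value, from a table of 57736 genes. Earlier results of these data were known when they were chosen. All 9 passed the filter on low counts that left 17317 genes for testing. With tunicamycin 7 of the 9 were significantly upregulated in control, CARM1 knockout and XBP1 knockdown cells alike. The exceptions were SHMT1 and MTHFD1, which code for the cytosolic enzymes of the folate pathway among the 9. Genes outside the 9 did not all divide by compartment. ALDH1L1, which codes for a cytosolic folate enzyme, rose in control and XBP1 knockdown cells. MTHFD2L, which codes for a mitochondrial one, rose in no genotype.

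Cells make serine from the glycolytic intermediate phosphoglycerate in consecutive steps catalyzed by PHGDH, PSAT1 and PSPH. Serine hydroxymethyltransferase then moves a one-carbon unit from serine to tetrahydrofolate and leaves glycine, with SHMT1 in the cytosol and SHMT2 in mitochondria. In mitochondria MTHFD2 oxidizes the folate-bound unit, MTHFD1L releases it as formate, and ALDH1L2 can instead oxidize it to carbon dioxide with the formation of NADPH. Formate that reaches the cytosol is taken up again by MTHFD1 for the synthesis of purines, thymidylate and methionine. Transcription of several of these genes is known to be controlled by ATF4, the transcription factor that PERK signaling induces during endoplasmic reticulum (ER) stress.

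A1847 is an established human cell line that the study used as a high-grade serous ovarian carcinoma line expressing CARM1, a protein arginine methyltransferase and transcriptional coactivator. The study asked how CARM1 and XBP1, the transcription factor of the IRE1α arm of the unfolded protein response, shape the response to ER stress. Cells were wild type for both genes (control), CARM1 knockout with XBP1 wild type, or XBP1 knockdown with CARM1 wild type, and each was given vehicle or tunicamycin (5 μg/ml, 8 h), an inhibitor of N-linked protein glycosylation that causes ER stress. The 6 groups held 3 replicates each. The knockout was made with a lentiviral CRISPR vector and puromycin selection and the knockdown with a lentiviral shRNA. Whether the knockout cells were 1 clone or a pool, and whether the wild-type cells carried a control vector, is not stated in the sources used here. The same control libraries served both modified genotypes.

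Library totals were 9367462 to 13917212 counts (median 12899158). CARM1 mRNA was 162 ± 2.69 CPM (counts normalized for library size, SD, n = 3) in control and 74.2 ± 3.11 in CARM1 knockout cells with vehicle, and 135 ± 3.89 and 71.2 ± 4.50 with tunicamycin. XBP1 mRNA was 46.0 ± 4.50 CPM in control and 25.4 ± 1.25 in XBP1 knockdown cells with vehicle, and 150 ± 3.02 and 71.6 ± 2.35 with tunicamycin. CARM1 mRNA was higher in XBP1 knockdown than in control cells, at 190 ± 2.49 CPM with vehicle and 174.5 ± 7.83 with tunicamycin. XBP1 mRNA in CARM1 knockout cells was 33.9 ± 6.49 CPM with vehicle, lower than in control cells. With tunicamycin it was 143 ± 2.32, a difference that did not pass the test. The CARM1 knockout libraries stood apart from the rest. Their log2 CPM values correlated with those of the other genotypes at a Pearson r of 0.730 to 0.775 across genes, against 0.961 to 0.987 between control and XBP1 knockdown libraries. Of 9 markers of epithelial ovarian cancer cells, the defining markers PAX8, WT1 and MSLN were at 0 to 2 counts and KRT7 at 0 to 13 in every control and XBP1 knockdown library, although PAX8 and WT1 are usual markers of the tumor type the study names. The epithelial keratins KRT18, at 1435 to 5479 counts, and KRT8, at 251 to 896, were detected in the same libraries, and EPCAM was at 22 to 52 and CDH1 at 0 to 6. In the CARM1 knockout libraries PAX8 was at 465 to 840 counts and KRT7 at 3576 to 5166, KRT18 was at 12965 to 18887, KRT8 at 6208 to 9436, EPCAM at 157 to 266, MSLN at 61 to 153, CDH1 at 8 to 23 and WT1 at 3 to 13, and the summed level of the 9 markers was 2070 to 2560 CPM against 137 to 493 in all other libraries. MUC16 was at 0 counts in all libraries. Of 6 leukocyte and fibroblast markers, COL3A1 was at 0 to 10 counts in knockout libraries and at 1582 to 3403 in the others, while COL1A1 went the other way, with 2205 to 6247 counts in knockout libraries and 54 to 259 in the others. DCN, PTPRC and CD14 were at 0 to 20 counts and CD3E was at 0 in all libraries, and the summed level of the list was 167 to 456 CPM against 147 to 268. The labels name A1847 for all 18 libraries, and whether the knockout libraries come from the same line as the others was not tested. The part of this difference in the results below was not tested either, and in comparisons of CARM1 knockout with control cells it cannot be told apart from the loss of CARM1. Comparisons of tunicamycin with vehicle were made within a genotype.

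All 9 genes are protein coding and lie on 8 chromosomes. In GRCh37 coordinates PHGDH (ENSG00000092621) spans chr1:120191034-120286841, PSAT1 (ENSG00000135069) chr9:80912041-80945009 and PSPH (ENSG00000146733) chr7:56078744-56119297. SHMT1 (ENSG00000176974) spans chr17:18231174-18266877 and SHMT2 (ENSG00000182199) chr12:57623356-57628718. MTHFD1 (ENSG00000100714) spans chr14:64854749-64930175, MTHFD2 (ENSG00000065911) chr2:74413299-74444692, MTHFD1L (ENSG00000120254) chr6:151186815-151423023 and ALDH1L2 (ENSG00000136010) chr12:105413562-105501421. PSPH, SHMT1 and ALDH1L2 are on the minus strand. SHMT1, SHMT2, MTHFD1, MTHFD2 and ALDH1L2 each end within 1 kb of a protein-coding gene on the opposite strand, and since the strand setting of the counting is not stated, reads of such neighbors cannot be told apart. ZBTB25, the neighbor of MTHFD1, was at 27.9 to 33.0 CPM as a group mean, and NOPCHAP1, the neighbor of ALDH1L2, at 46.9 to 68.4 CPM. SLC4A5, the neighbor of MTHFD2, was at 1.48 to 2.87 CPM. SMCR8, the neighbor of SHMT1, and NDUFA4L2, that of SHMT2, were not among the genes that passed the filter, so that no level is given. Of 14 pseudogenes named after these genes, 12 had 0 counts in every library, PSPHP1 had 0 to 4 and MTHFD2P1 5 to 45.

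Promoter sequences of 6 of the 9 genes were found in the RefSeq table (GRCh38.p14). PSPH, SHMT2 and ALDH1L2 had none there. The 250 bases before the transcription start are shown for PSAT1 and MTHFD2, which rose with tunicamycin, and for MTHFD1 and SHMT1, which did not rise, since the 2 pairs differed in response while belonging to 1 pathway. The windows are chr9:78296875-78297124 on the plus strand for PSAT1, chr2:74198365-74198614 on the plus strand for MTHFD2, chr14:64388103-64388352 on the plus strand for MTHFD1 and chr17:18363551-18363800 on the minus strand for SHMT1. Capitals mark matches to the searched motifs.
PSAT1: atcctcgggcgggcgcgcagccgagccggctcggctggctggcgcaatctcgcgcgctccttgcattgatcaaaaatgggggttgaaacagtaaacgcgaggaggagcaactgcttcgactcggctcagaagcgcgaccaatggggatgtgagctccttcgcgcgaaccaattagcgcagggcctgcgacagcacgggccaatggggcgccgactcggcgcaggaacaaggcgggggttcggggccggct
MTHFD2: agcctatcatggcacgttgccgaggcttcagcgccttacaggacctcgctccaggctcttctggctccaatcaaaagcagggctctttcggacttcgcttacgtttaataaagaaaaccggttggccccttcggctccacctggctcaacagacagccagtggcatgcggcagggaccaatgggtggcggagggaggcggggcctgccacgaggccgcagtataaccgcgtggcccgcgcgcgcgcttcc
MTHFD1: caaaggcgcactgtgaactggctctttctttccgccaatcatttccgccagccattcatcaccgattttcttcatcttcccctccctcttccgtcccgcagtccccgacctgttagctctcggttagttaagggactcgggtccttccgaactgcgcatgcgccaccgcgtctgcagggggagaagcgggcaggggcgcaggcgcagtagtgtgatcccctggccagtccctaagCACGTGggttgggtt
SHMT1: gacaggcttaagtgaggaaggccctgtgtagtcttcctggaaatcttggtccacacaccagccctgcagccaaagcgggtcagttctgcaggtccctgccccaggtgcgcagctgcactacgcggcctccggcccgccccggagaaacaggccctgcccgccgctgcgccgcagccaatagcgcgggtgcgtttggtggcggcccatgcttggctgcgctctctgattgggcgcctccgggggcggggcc
The stretch of MTHFD1L that held a match to the C/EBP-ATF element is shown because no other of the 6 genes held one, at chr6:150866346-150866375 on the plus strand.
MTHFD1L: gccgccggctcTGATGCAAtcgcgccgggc

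Windows from 250 bases before to 50 after the start were searched on both strands for the C/EBP-ATF element TGATGNAA, the ER stress response element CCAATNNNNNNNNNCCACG, the unfolded protein response element core TGACGTG and the E-box CACGTG. Of 35116 promoters in the table, 3.62% held TGATGNAA, 0.0769% the ER stress response element, 1.97% TGACGTG and 7.26% CACGTG. Among the 6 genes with a promoter, MTHFD1L held TGATGCAA, which began 129 bases before the start in the most downstream of 3 overlapping entries of that gene. CACGTG was found in MTHFD1L, 154 bases before the same start, and in MTHFD1, 15 bases before its start. PHGDH, PSAT1, MTHFD2 and SHMT1 held none of these letters in the window. A match is a description of the letters and was not tied to binding here.

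The response to tunicamycin was examined first. In control cells 7 of the 9 genes were higher with tunicamycin and none was lower at a false discovery rate (FDR) of 5%, while 22.0% of all genes tested were higher and 19.9% lower. The median log2 fold change of the 9 genes was 1.80, against 0.00 for all genes tested. In CARM1 knockout cells 7 were higher and SHMT1 was lower, with 20.6% of all genes higher and 18.8% lower, and the median of the 9 was 1.501. XBP1 knockdown cells gave 7 higher and none lower, with 19.2% of all genes higher and 19.0% lower, and a median of 1.496. The same 7 genes rose in each genotype, and in none of them did the 3 tunicamycin libraries overlap with the 3 vehicle libraries of that genotype. Of all genes tested, 25.1% in control, 22.3% in CARM1 knockout and 24.3% in XBP1 knockdown cells had their 3 tunicamycin libraries above their 3 vehicle libraries. Expression in a bulk culture is an average, so that fewer expressing cells and less mRNA per cell cannot be told apart. Labels give separate replicates without saying whether they were separate cultures, so that p-values measure the spread between these libraries.

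**Figure D1:**
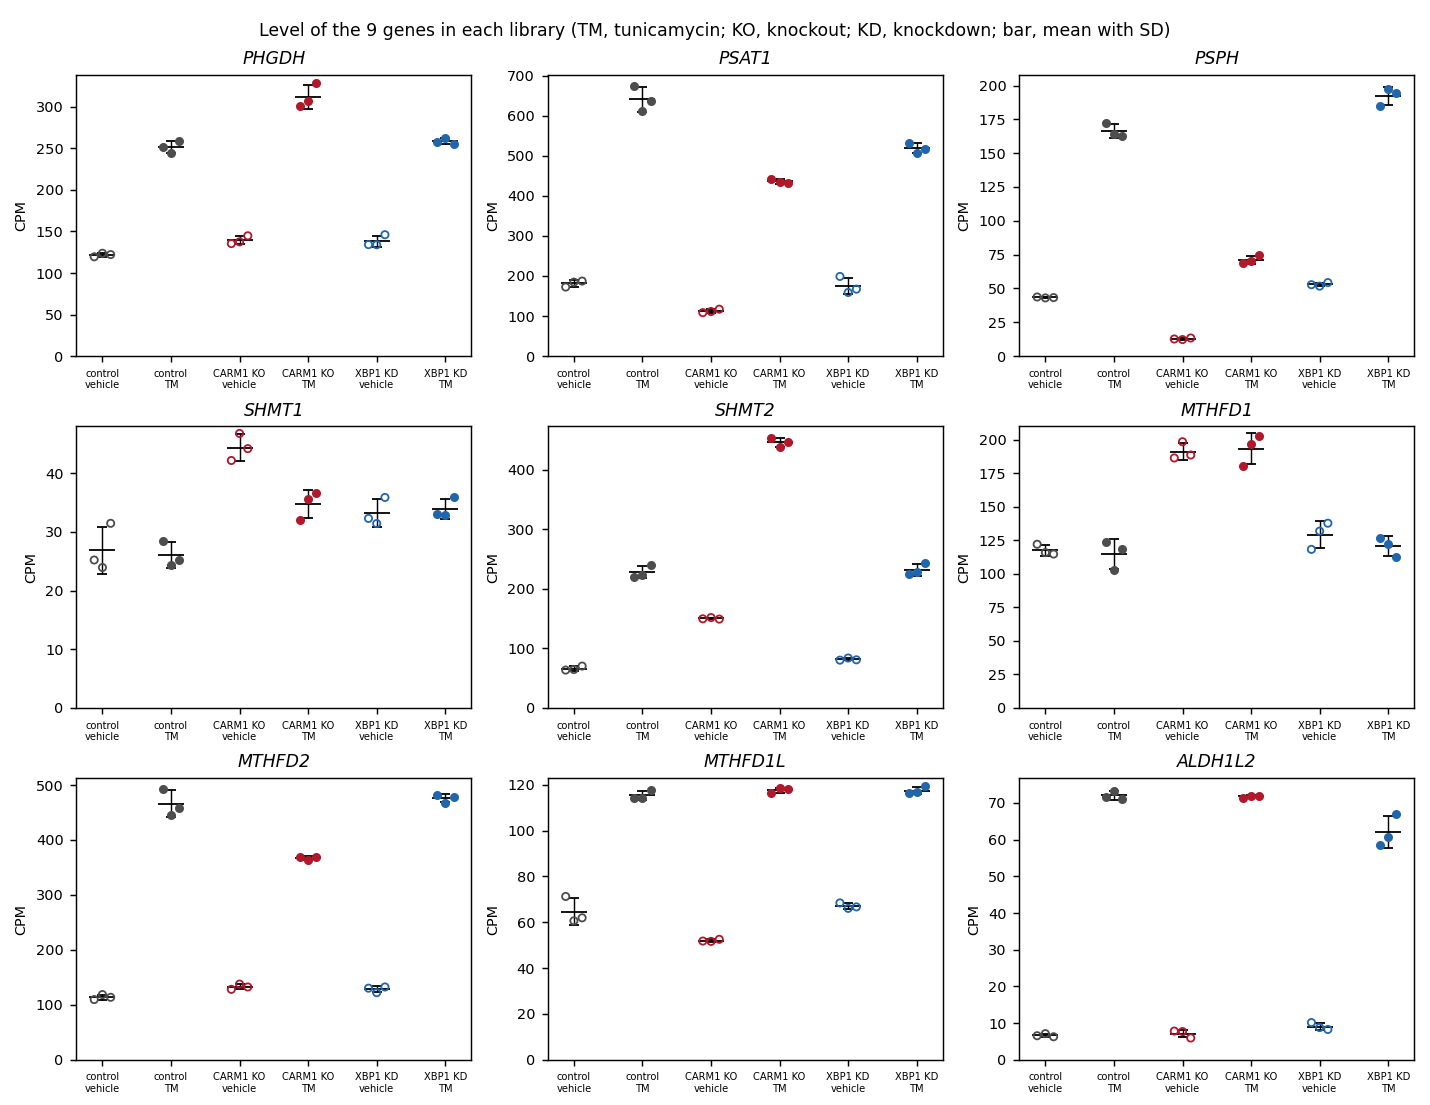
CPM of each of the 9 genes in each library (points, 3 per group), with the group mean and SD (bars), for the 6 groups on the x axis. Open points are vehicle and filled points tunicamycin. In 7 panels the filled points lie above the open points of the same genotype, while in the SHMT1 and MTHFD1 panels they do not.

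PHGDH, phosphoglycerate dehydrogenase, catalyzes the step that commits carbon to serine. In control cells its level was 119.5, 124 and 122 CPM with vehicle and 251, 244 and 258 with tunicamycin, so that the lowest treated library was well above the highest untreated one. The log2 fold change was 1.06 ± 0.05 (SE, edgeR quasi-likelihood test, adjusted p = 1.36e-10). The levels in CARM1 knockout cells were 135, 137.5 and 145 CPM with vehicle and 301, 307.5 and 328 with tunicamycin, a log2 fold change of 1.203. Those of XBP1 knockdown cells were 134, 134 and 146 CPM with vehicle and 257, 262 and 255.5 with tunicamycin, a log2 fold change of 0.90. The increase was 1.86-fold to 2.30-fold over the genotypes, and PHGDH ranked 1281 from the top of 17317 genes in control cells.

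PSAT1, the aminotransferase of the next step, takes its amino group from glutamate. In control cells it was at 172, 185 and 187 CPM with vehicle and at 674, 612 and 636 with tunicamycin, with no overlap. The log2 fold change of 1.83 ± 0.06 was a 3.56-fold increase (edgeR, adjusted p = 3.17e-13). CARM1 knockout cells had 108, 111 and 117 CPM with vehicle and 442, 433 and 432 with tunicamycin, both lower than the control groups, with a log2 fold change of 2.00. XBP1 knockdown cells had 199, 159 and 167 CPM with vehicle, a spread that covered the control values, and 531, 508 and 516 with tunicamycin, all below the control values. The log2 fold change there was 1.56.

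PSPH, the phosphatase that releases serine, rose as well. In control cells it was at 43.7, 43.0 and 43.3 CPM with vehicle and at 172, 164 and 163 with tunicamycin, a 3.87-fold increase (log2 fold change 1.95 ± 0.06, edgeR adjusted p = 2.99e-13). The CARM1 knockout libraries were at 12.7, 12.2 and 13.4 CPM with vehicle and at 68.6, 70.6 and 74.5 with tunicamycin. These were the lowest PSPH values of the 3 genotypes under each treatment, and the increase of 5.74-fold (log2 fold change 2.52) was larger than in control cells. With XBP1 knockdown PSPH was at 52.8, 51.7 and 54.4 CPM with vehicle and at 185, 197.5 and 194 with tunicamycin, a log2 fold change of 1.85. All 3 genes of serine synthesis thus rose with tunicamycin in each genotype, PHGDH by the smallest log2 fold change of the 3.

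The hydroxymethyltransferases of cytosol and mitochondria differed. SHMT2, the mitochondrial enzyme, was at 63.8, 64.6 and 70.5 CPM with vehicle and at 221, 224 and 240.3 with tunicamycin in control cells, without overlap. Its log2 fold change was 1.80 ± 0.06 (edgeR, adjusted p = 1.49e-12). With CARM1 knockout SHMT2 was at 149.9, 152 and 149 CPM with vehicle and at 453, 439 and 447 with tunicamycin, all above the control values under the same treatment, and the log2 fold change was 1.60. With XBP1 knockdown it was at 80.4, 84.0 and 81.0 CPM with vehicle and at 224, 229 and 243 with tunicamycin, a log2 fold change of 1.496.

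SHMT1, the cytosolic enzyme, was at 25.2, 23.9 and 31.5 CPM with vehicle and at 28.5, 24.4 and 25.3 with tunicamycin in control cells. These values overlapped, and the log2 fold change of -0.04 (95% confidence interval -0.27 to 0.20) did not pass the test. The XBP1 knockdown libraries were at 32.3, 31.4 and 35.9 CPM with vehicle and at 33.0, 32.8 and 35.9 with tunicamycin, again overlapping, with a log2 fold change of 0.02 (-0.15 to 0.19). In CARM1 knockout cells SHMT1 fell, from 42.2, 46.8 and 44.2 CPM with vehicle to 32.1, 35.6 and 36.6 with tunicamycin (log2 fold change -0.31 ± 0.07, edgeR adjusted p = 0.00137). Whether this response differed from that of control cells did not pass the interaction test (difference -0.30, adjusted p = 0.131), except in the fit without replicate 3 of control with vehicle (-0.36, adjusted p = 0.0362).

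Among the folate enzymes, MTHFD2, the mitochondrial dehydrogenase and cyclohydrolase, was at 109.7, 119 and 114 CPM with vehicle and at 493, 446 and 459 with tunicamycin in control cells. The 4.12-fold increase (log2 fold change 2.04 ± 0.06, edgeR adjusted p = 1.05e-13) was exceeded among the 9 genes only by that of ALDH1L2. CARM1 knockout cells had 128, 138 and 133 CPM with vehicle and 369, 363 and 369 with tunicamycin, so that they began above control and ended below it, with a log2 fold change of 1.501. XBP1 knockdown cells had 130.4, 122 and 133 CPM with vehicle and 482, 467 and 479 with tunicamycin, a log2 fold change of 1.88.

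MTHFD1L, the mitochondrial formyltetrahydrofolate synthetase that yields formate, showed the smallest increase of the 7 genes in control and XBP1 knockdown cells. In control cells it was at 71.3, 60.6 and 61.9 CPM with vehicle and at 114, 114 and 118 with tunicamycin (log2 fold change 0.85 ± 0.07, edgeR adjusted p = 4.53e-08). In CARM1 knockout cells it was at 51.8, 51.7 and 52.6 CPM with vehicle and at 116, 118.5 and 118 with tunicamycin, a log2 fold change of 1.21. The knockdown libraries were at 68.5, 66.1 and 66.7 CPM with vehicle and at 116, 117 and 119 with tunicamycin, a log2 fold change of 0.80. The tunicamycin levels of the 3 genotypes lay within 114 to 119 CPM. With vehicle the CARM1 knockout libraries lay below those of control and XBP1 knockdown cells, which overlapped.

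ALDH1L2, the mitochondrial formyltetrahydrofolate dehydrogenase, had the largest increase of the 9 genes in each genotype. In control cells it was at 6.58, 7.15 and 6.30 CPM with vehicle, that is 85 to 97 counts per library, and at 71.7, 73.4 and 71.1 with tunicamycin. The increase was 10.9-fold (log2 fold change 3.44 ± 0.09, edgeR adjusted p = 3.28e-14) and ranked 111 among 17317 genes. CARM1 knockout cells had 7.85, 7.72 and 5.95 CPM with vehicle and 71.5, 72.0 and 71.9 with tunicamycin, nearly the control values, with a log2 fold change of 3.34. Among XBP1 knockdown cells the vehicle libraries were at 10.2, 8.80 and 8.29 CPM, all above control, and the tunicamycin libraries at 58.5, 60.8 and 67.0, all below control, so that the log2 fold change was 2.77.

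MTHFD1, the cytosolic enzyme that takes formate back into the folate pool, was at 122, 116 and 115 CPM with vehicle and at 124, 103 and 118 with tunicamycin in control cells. The groups overlapped, and the log2 fold change was -0.02 (95% confidence interval -0.17 to 0.13), which did not pass the test. It was 0.05 (-0.04 to 0.14) in CARM1 knockout cells and -0.11 (-0.25 to 0.03) in XBP1 knockdown cells, with overlapping groups in both. Leaving out replicate 1 of the XBP1 knockdown vehicle libraries turned the last value into a call (-0.17, edgeR adjusted p = 0.0437).

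**Figure D2:**
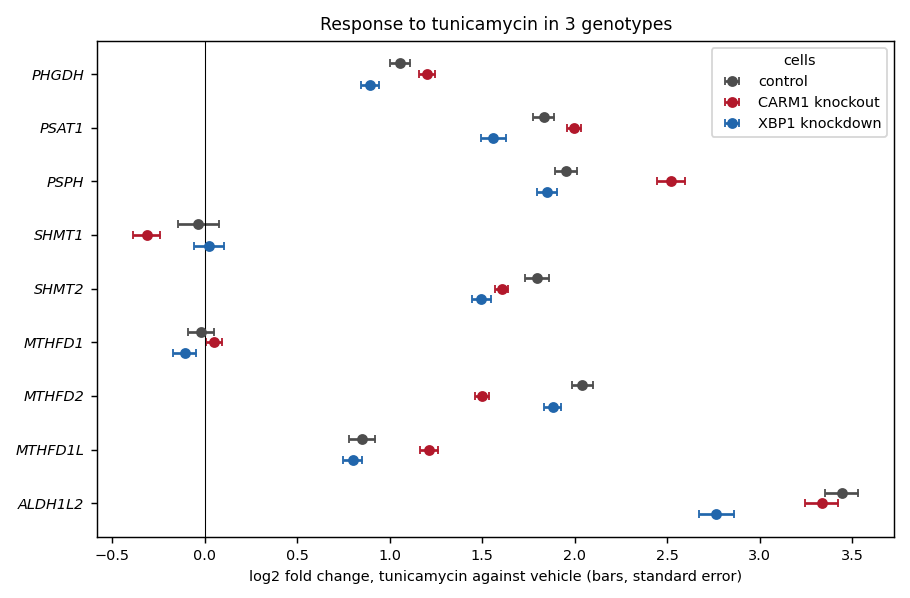
Log2 fold change of each gene with tunicamycin against vehicle (x axis) in control, CARM1 knockout and XBP1 knockdown cells (colors), with the standard error (bars). The 7 genes that rose lie between 0.80 and 3.44, and SHMT1 and MTHFD1 lie between -0.31 and 0.05.

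To compare compartments within a library, the log2 ratio of the mitochondrial to the cytosolic paralog was formed in each library. No ratio was formed for ALDH1L2 and its cytosolic paralog ALDH1L1, both of which rose in control cells. MTHFD2L, a mitochondrial paralog of MTHFD2, was not used in a ratio either. Its log2 fold change with tunicamycin was -0.19 in control and 0.08 in CARM1 knockout cells, neither of which passed the test. In XBP1 knockdown cells MTHFD2L fell (-0.45). The ratios below therefore describe the named pairs, not all mitochondrial and cytosolic paralogs of the pathway. CPM values are not scaled by length, so that only the change of a ratio is read here, not its level. The log2 ratio of SHMT2 to SHMT1 rose from 1.16 to 1.43 with vehicle to 2.95 to 3.24 with tunicamycin in control cells, from 1.70 to 1.83 to 3.60 to 3.81 in CARM1 knockout cells, and from 1.17 to 1.41 to 2.75 to 2.79 in XBP1 knockdown cells (lowest to highest library). Averaged over genotypes the change was 1.74. The log2 ratio of MTHFD2 to MTHFD1 changed by 2.07 in control, 1.45 in CARM1 knockout and 1.99 in XBP1 knockdown cells, with a mean of 1.84. For MTHFD1L to MTHFD1 the changes were 0.88, 1.16 and 0.91, with a mean of 0.98. In none of the 3 ratios did treated and untreated libraries of a genotype overlap. Each change had p = 0.00025 in a two-sided exact permutation test of treatment within genotype over 8000 arrangements, the smallest value that test can give, and the same value after adjustment over the 3 ratios. Without the CARM1 knockout libraries the mean changes were 1.64, 2.03 and 0.89 (exact permutation p = 0.005 each, the smallest possible there).

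**Figure D3:**
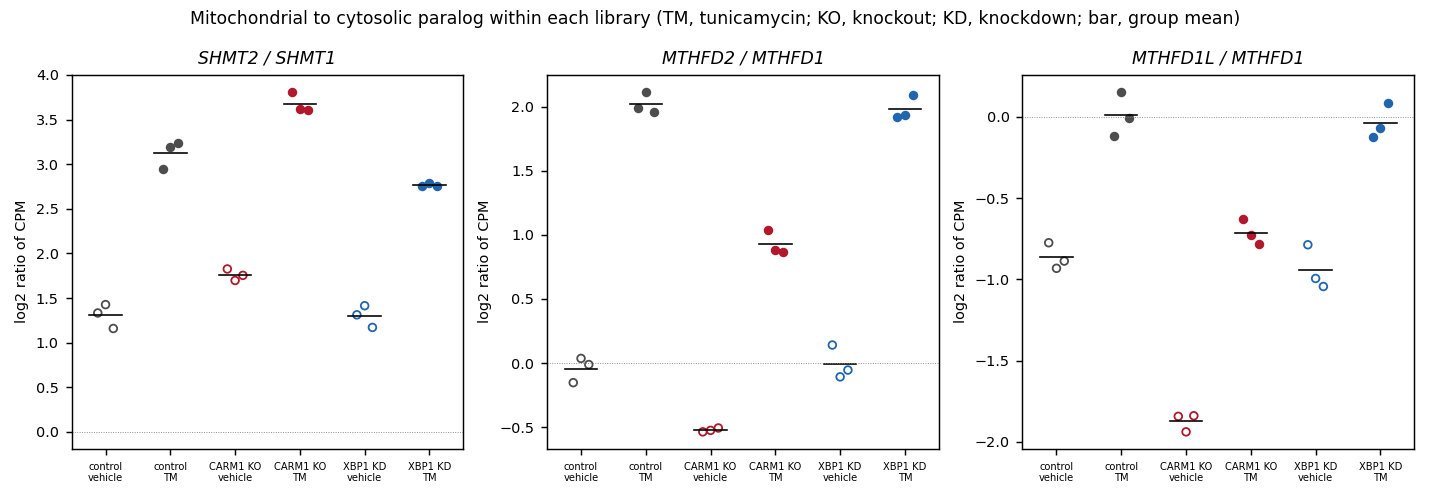
Log2 ratio of CPM of the mitochondrial to the cytosolic paralog in each library (points) with the group mean (bar) for SHMT2 to SHMT1, MTHFD2 to MTHFD1 and MTHFD1L to MTHFD1. Filled tunicamycin points lie above the open vehicle points of the same genotype in each panel.

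The genes were then set beside the arms of the unfolded protein response. ATF4 mRNA was at 413, 412 and 430 CPM with vehicle and at 1461, 1392 and 1510 with tunicamycin in control cells (log2 fold change 1.81 ± 0.05, edgeR adjusted p = 9.37e-14), at 548, 556 and 532 and at 1297, 1324 and 1341 in CARM1 knockout cells (1.31), and at 415, 425 and 427 and at 1438, 1423 and 1410.0 in XBP1 knockdown cells (1.74). All 16 genes listed for the PERK and ATF4 arm, which excludes the 9 genes, rose in control cells with a median log2 fold change of 3.09. Of 16 genes listed for the XBP1s arm 15 rose and 1 fell, with a median of 2.06. The median of the 9 genes was thus below that of both lists in control cells. The medians of the 2 lists were 2.31 (15 of 16 higher) and 1.87 (14 higher and 1 lower) in CARM1 knockout cells and 2.91 (16 of 16 higher) and 1.47 (14 higher and 2 lower) in XBP1 knockdown cells. The median of the 9 genes was 1.501 in CARM1 knockout cells, again below both. In XBP1 knockdown cells it was 1.496, below the PERK and ATF4 list but not below the XBP1s list.

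By likeness of pattern over the 18 libraries, measured as Pearson's r of log2 CPM against the 9523 genes whose log2 CPM averaged 3 or more, the genes closest to PHGDH, MTHFD2 and ALDH1L2 were DDIT3 (r = 0.994), WARS1 (0.998) and ASNS (0.992). Those closest to PSAT1, PSPH and SHMT2 were CDC6 (0.993), IARS1 (0.993) and CANX (0.991), and the one closest to MTHFD1L was SDF2L1 (0.986). DDIT3 and ASNS are on the list of the PERK and ATF4 arm and SDF2L1 on that of the XBP1s arm, while WARS1 and IARS1 code for aminoacyl-tRNA synthetases. SHMT1 and MTHFD1 were closest to PSMB6 (0.938) and ENO1 (0.983). Next in order were TXNDC11 and EIF2S2 for PHGDH, HYOU1 and DERL3 for PSAT1, VHL and HSPA9 for PSPH, SDHB for SHMT1, CAMTA2 and EIF4EBP1 for SHMT2, KTN1 and ANKRD49 for MTHFD1, SEL1L and GOT1 for MTHFD2, TARS1 and HYOU1 for MTHFD1L, and UGDH and SYVN1 for ALDH1L2, with r from 0.937 to 0.996. Of these next genes SEL1L and SYVN1 are on the list of the XBP1s arm. The libraries share genotype and treatment, so that all these r values are descriptions.

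The rest of the pathway was examined through 39 further genes, of which 37 were tested. In control cells 11 rose and 8 fell with tunicamycin, at a median log2 fold change of 0.03, where 22.0% of all genes were higher and 19.9% lower. The counts were 11 and 9 in CARM1 knockout and 11 and 10 in XBP1 knockdown cells, where the shares of all genes were 20.6% and 18.8%, and 19.2% and 19.0%. Of 8 genes of folate uptake and activation 2 rose and 3 fell in control cells. SLC46A1, the proton-coupled folate transporter, fell most, from 19.0 ± 1.41 to 8.83 ± 0.86 CPM (SD, n = 3, log2 fold change -1.09, edgeR adjusted p = 1.81e-06). It fell in XBP1 knockdown cells as well (-0.93) and did not pass the test in CARM1 knockout cells (-0.05). Among 5 tested genes of folate interconversion 1 rose and 1 fell. ALDH1L1, the cytosolic paralog of ALDH1L2, rose from 4.30 to 6.53 CPM in control cells (0.61, edgeR adjusted p = 0.0135), a smaller log2 fold change than the 3.44 of ALDH1L2, the difference of which was not tested.

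In the glycine cleavage system 2 of 4 genes rose and none fell in control cells. AMT, its aminomethyltransferase, rose from 1.36 to 5.15 CPM (log2 fold change 1.93 ± 0.23, edgeR adjusted p = 3.68e-06), and by 2.02 and 2.37 in CARM1 knockout and XBP1 knockdown cells, at low levels in each. Among 6 genes of nucleotide synthesis that use one-carbon units 2 rose and 1 fell, and GART, an enzyme of purine synthesis, rose from 128 to 187 CPM (0.56). Among 7 genes of the methionine cycle 3 rose and 1 fell, and MTRR, methionine synthase reductase, rose from 15.5 to 25.5 CPM (0.73). Of 7 tested genes of serine transport into mitochondria and serine use 1 rose, SDSL (0.98), and 2 fell. One of those 2 was SFXN1, the mitochondrial serine transporter, named here after its values were seen, which fell from 103 ± 1.92 to 64.6 ± 3.79 CPM in control cells (-0.66, edgeR adjusted p = 3.60e-07) and by 0.34 and 0.71 on the log2 scale in CARM1 knockout and XBP1 knockdown cells.

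CARM1 knockout cells were then compared with control cells. With vehicle 5 of the 9 genes were higher, 3 were lower and ALDH1L2 was not called, where 37.5% of all genes tested were higher and 36.9% lower. PSPH showed the largest difference, with 12.2 to 13.4 CPM in knockout against 43.0 to 43.7 in control libraries (log2 fold change -1.81 ± 0.08, edgeR adjusted p = 2.14e-11), a 3.51-fold lower level. PSAT1 was also lower (-0.74), as was MTHFD1L (-0.36). SHMT2 was 2.20-fold higher (1.14 ± 0.05, edgeR adjusted p = 3.20e-11). SHMT1 (0.67), MTHFD1 (0.66), MTHFD2 (0.17) and PHGDH (0.15) were higher by less. The call of PHGDH was lost without replicate 3 of the knockout vehicle libraries (0.12, adjusted p = 0.0723).

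With tunicamycin 4 genes were higher, 3 were lower and 2 were not called, where 38.4% of all genes were higher and 36.8% lower. PSPH (-1.22) and PSAT1 (-0.55) were again lower, and SHMT2 (0.97), MTHFD1 (0.76), SHMT1 (0.42) and PHGDH (0.32) again higher. MTHFD2 was higher with vehicle and lower with tunicamycin (-0.34, edgeR adjusted p = 4.84e-06). MTHFD1L (0.04, 95% confidence interval -0.07 to 0.14) and ALDH1L2 (0.00, -0.11 to 0.11) did not pass the test. PSAT1 and PSPH were thus lower in knockout cells under both treatments, while PHGDH, SHMT1, SHMT2 and MTHFD1 were higher. Calls in both directions were common among all genes in this comparison. Whether those of the pathway form a pattern beyond these shares was not tested.

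The genes within 5 Mb of each start were inspected as a description of whole chromosomal neighborhoods. With vehicle the median log2 fold change of CARM1 knockout against control was -0.12 for 14 genes near PSPH and 0.47 for 17 near PSAT1, against -1.81 and -0.74 for the genes themselves. It was 0.05 for 150 genes near SHMT2, whose own value was 1.14, and -0.45 for 99 near SHMT1, whose own value was 0.67. Near PHGDH it was 0.96 for 40 genes, above the 0.15 of PHGDH. The neighborhood medians of MTHFD1 (0.29), MTHFD2 (-0.02), MTHFD1L (0.59) and ALDH1L2 (0.45) ranged in the same way around their own values. Neighborhood and gene differed in sign for PSAT1, SHMT1, MTHFD2 and MTHFD1L.

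**Figure D4:**
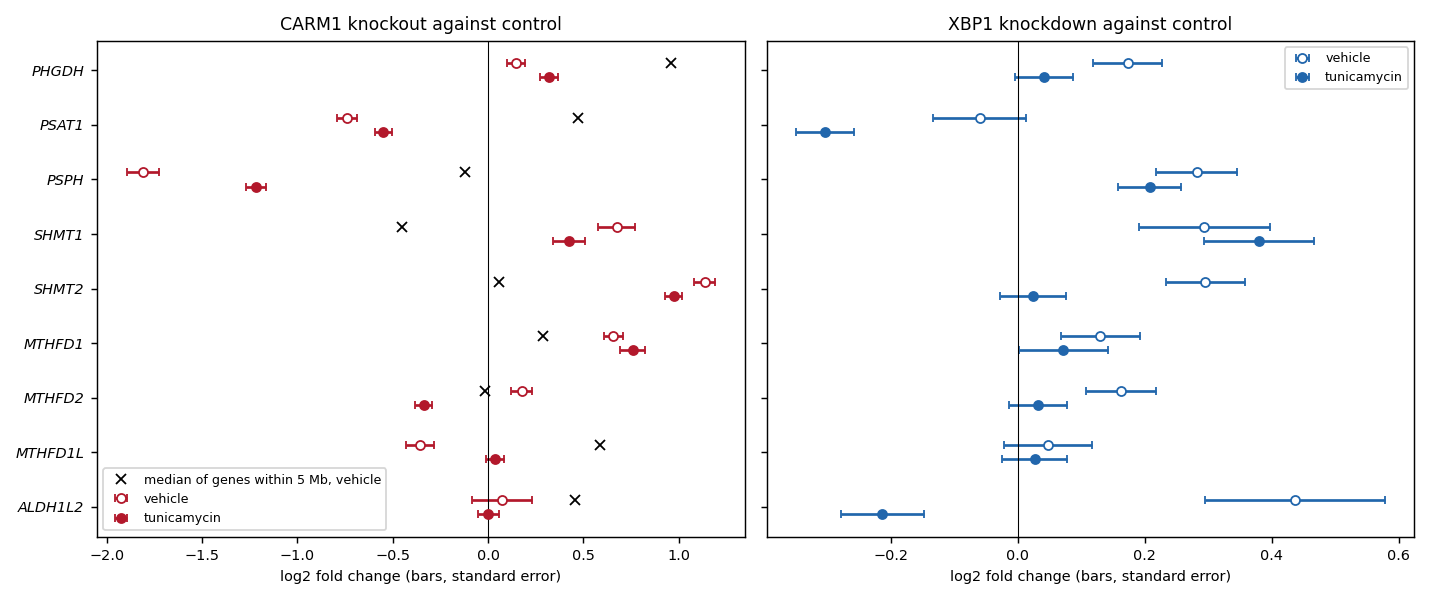
Log2 fold change of each gene against control cells (x axis) in CARM1 knockout (left) and XBP1 knockdown cells (right), with vehicle (open) and tunicamycin (filled), with the standard error (bars). Crosses give the median of the tested genes within 5 Mb with vehicle. The x axes differ in range, with PSPH at -1.81 on the left and no gene beyond 0.44 on the right.

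Of the other pathway genes 9 were higher and 22 lower in CARM1 knockout than in control cells with vehicle, of 37 tested, and 10 and 20 with tunicamycin, where 37.5% of all genes were higher and 36.9% lower with vehicle and 38.4% and 36.8% with tunicamycin. All 4 genes of the glycine cleavage system were lower under both treatments, with a median log2 fold change of -1.92 with vehicle and -2.12 with tunicamycin. Of 7 genes of the methionine cycle 5 were lower and 1 higher under each treatment.

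The response to tunicamycin itself differed between CARM1 knockout and control cells for 4 of the 9 genes. The interaction term, which is the log2 response in knockout cells minus that in control cells, was higher for 2 and lower for 2, where it was higher for 10.5% and lower for 12.4% of all genes. PSPH (0.55 ± 0.09, edgeR adjusted p = 0.000127) and MTHFD1L (0.35 ± 0.08, adjusted p = 0.00438) responded more strongly in knockout cells, and both had a lower vehicle level there. MTHFD2 responded less (-0.56 ± 0.07, adjusted p = 3.46e-06), as did SHMT2 (-0.21 ± 0.07, adjusted p = 0.0308). The SHMT2 call was not kept in 10 of 12 fits without 1 library, where the value ranged from -0.10 to -0.21 among lost calls, nor without a filter on low counts (-0.14, adjusted p = 0.310). These 10 were the fits without any 1 of replicates 1 and 2 of control with vehicle, the 3 of control with tunicamycin, the 3 of knockout with vehicle, and replicates 2 and 3 of knockout with tunicamycin. The interaction of ATF4 was -0.52 (adjusted p = 9.97e-07), and of the 16 genes of the PERK and ATF4 arm 10 had a lower and 2 a higher response in knockout cells. PHGDH (0.13, adjusted p = 0.198), PSAT1 (0.14, adjusted p = 0.143), MTHFD1 (0.05) and ALDH1L2 (-0.13) did not pass the test. PSAT1 passed it without replicate 1 of control with vehicle (0.25) or with tunicamycin (0.26) and without a filter on low counts (0.21), SHMT1 without replicate 3 of control with vehicle (-0.36, adjusted p = 0.0362), and PHGDH without replicate 3 of control with tunicamycin (0.22). The median interaction of all genes moved as well. It was -0.014 in the main fit, 0.049 to 0.066 without 1 control library and 0.055 without the filter. Without 1 knockout library it was -0.020 to -0.0049. The part of this shift in the gained and lost calls was not tested.

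Fewer of the genes differed between XBP1 knockdown and control cells. With vehicle 2 of the 9 were higher and none was lower, where 2.07% of all genes tested were higher and 3.03% lower. PSPH was at 51.7 to 54.4 CPM against 43.0 to 43.7 in control (log2 fold change 0.28 ± 0.06, edgeR adjusted p = 0.0198), and SHMT2 was at 80.4 to 84.0 against 63.8 to 70.5 (0.30 ± 0.06, adjusted p = 0.0117). Both calls were lost without control replicate 1 or 2 or knockdown replicate 2, with 0 of the 9 genes called in those fits. Of all genes, those fits called 146 to 168 higher and 289 to 309 lower, against 359 and 524 with no library left out. The call of PSPH was also lost without knockdown replicate 3. ALDH1L2 was higher in every knockdown library than in every control library, with a log2 fold change of 0.44 that did not pass the test (adjusted p = 0.0980). PHGDH (0.17, adjusted p = 0.0862), SHMT1 (0.29, adjusted p = 0.129) and MTHFD2 (0.16, adjusted p = 0.118) did not pass it either. SHMT1 passed it without control replicate 3 (0.43).

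With tunicamycin the knockdown gave 2 higher and 2 lower genes among the 9, where 6.99% of all genes were higher and 8.55% lower. PSAT1 was lower (-0.30 ± 0.05, edgeR adjusted p = 0.000253), with 508 to 531 CPM against 612 to 674. SHMT1 was higher (0.38 ± 0.09, adjusted p = 0.00705), with 32.8 to 35.9 CPM against 24.4 to 28.5, and both of these calls held without any 1 library. PSPH was higher (0.21 ± 0.05, adjusted p = 0.00957), a call lost without control replicate 3 or knockdown replicate 2 or 3. ALDH1L2 was lower (-0.21 ± 0.06, adjusted p = 0.0359), a call lost without any 1 library except knockdown replicate 3, and lost with DESeq2 (adjusted p = 0.0698). PHGDH, SHMT2, MTHFD1, MTHFD2 and MTHFD1L had log2 fold changes of 0.02 to 0.07 and did not pass the test, with 95% confidence intervals that lay within -0.09 to 0.22. Of the 16 genes of the XBP1s arm 11 were lower and none higher in the same comparison, with a median of -0.46, and of those of the PERK and ATF4 arm 3 were higher and 1 lower, with a median of 0.12. The medians of the 9 genes and of all genes were 0.03 and 0.00. Of the other pathway genes 3 were higher and 3 lower, of 37 tested.

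The interaction of XBP1 knockdown with tunicamycin was lower for 1 of the 9 genes and higher for none, where it was lower for 1.67% and higher for 0.364% of all genes. The gene was ALDH1L2 (-0.67 ± 0.13, edgeR adjusted p = 0.00774), whose increase was 10.9-fold in control and 6.80-fold in knockdown cells. The vehicle level was higher and the tunicamycin level lower in knockdown cells, and both entered this term. SHMT2 had the next lowest adjusted p (-0.29 ± 0.08, adjusted p = 0.0614) and passed the test with DESeq2 (-0.29, adjusted p = 0.0222), with all libraries in 1 fit (-0.28, adjusted p = 0.0239) and without control vehicle replicate 3 (-0.34). The interaction of ATF4 was -0.06 (adjusted p = 0.737). None of the 37 other pathway genes had an interaction that passed the test, and of the XBP1s arm 11 of 16 had a lower response.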

How the data were processed

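RNA-seq was analysed in 18 libraries labelled as A1847 cells, in 6 groups of 3. From 75 nt single reads of 3′ mRNA-seq libraries, aligned by bowtie2 to hg19, the authors estimated expected counts with RSEM. The deposited values are whole numbers per Ensembl gene and are not normalized. The submitters' processing notes give RSEM 1.2.3, while the paper's methods name another version of RSEM. The Ensembl release and strand setting are not given in the sources used here. Symbols for 55501 of 57736 genes and GRCh37 positions came from GENCODE. Replicate pairs differed by more than counting noise (chi-square per degree of freedom 1.84 to 6.89 over 18 pairs).

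Computations used R 4.3.3, edgeR 4.0.16 and DESeq2 1.42.0, and Python 3.11.15. Genes were kept by filterByExpr (minimum count 10) over all libraries, normalized with TMM and tested with edgeR's quasi-likelihood test on the compared groups alone, with Benjamini-Hochberg adjustment over the 17317 genes tested and calls at 0.05. Each standard error was taken as |log2 fold change|/√F, and 95% confidence intervals used the moderated degrees of freedom. CPM are TMM-scaled, and log2 CPM used a prior count of 2. Lists are described by counts and medians, without a set test. Named were the 9 genes, CARM1, XBP1 and ATF4, in each pathway list the called gene with the largest change in control cells, and the 3 genes closest in pattern to each of the 9, of which 1 is not reported here. MYC and NFE2L2 were listed as other regulators of the pathway. Members and lists were chosen with earlier results of these data known. Alternatives were DESeq2's size factors, DESeq2, no filter, 1 fit of all libraries, the replicate number as a block, omission of each library, and for ratios a prior count of 0.5 and no CARM1 knockout libraries. Scripts were tested on simulated data. The study's binding data were not analysed here.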

Additional observations from a re-analysis of the deposited data

Results flagged for a closer look

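The response to tunicamycin differed from that of control cells by an interaction test for 5 gene and genotype pairs (edgeR's quasi-likelihood test, adjusted over 17317 genes). In CARM1 knockout cells the difference of the log2 responses was 0.55 for PSPH, 0.35 for MTHFD1L, -0.56 for MTHFD2 and -0.21 for SHMT2. In XBP1 knockdown cells it was -0.67 for ALDH1L2. The calls of PSPH, MTHFD1L and MTHFD2 held in each fit without 1 library, as did that of ALDH1L2, while that of SHMT2 did not. Groups of 3 libraries were not screened for single outlying libraries.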

How the results depend on the processing

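Over the 9 comparisons the number of the 9 genes called moved by more than 1.5 times in 3 fits other than those without 1 library. With all libraries in 1 fit XBP1 knockdown against control with vehicle gave 6 called genes instead of 2. PHGDH, SHMT1, MTHFD2 and ALDH1L2 were added. Of all 17317 genes, that fit called 696 higher and 724 lower, against 359 and 524 in the fit of the compared groups. The interaction of XBP1 knockdown gave 2 instead of 1 with all libraries in 1 fit, as it did with DESeq2. Of all genes, 119 were higher and 339 lower there, against 63 and 290. With DESeq2 the numbers were 110 and 354 of 9482. Without 1 library the numbers called were 7 in each fit for the tunicamycin response in control, 8 in CARM1 knockout and 7 to 8 in XBP1 knockdown cells. They were 7 to 8 and 7 for CARM1 knockout against control with vehicle and tunicamycin, 0 to 3 and 2 to 3 for XBP1 knockdown, and 3 to 5 and 1 to 2 for the interactions. Of all genes, XBP1 knockdown against control gave 146 to 580 higher and 289 to 654 lower with vehicle. With tunicamycin it gave 617 to 1055 and 906 to 1416. The interactions gave 1549 to 2324 higher and 1467 to 1978 lower for CARM1 knockout. For XBP1 knockdown they gave 24 to 98 and 208 to 357. The tunicamycin responses gave 2883 to 3676 higher and 2865 to 3249 lower over the genotypes. CARM1 knockout against control gave 6170 to 6599 and 5985 to 6226. The changes of the log2 ratios were 1.71 to 1.77, 1.82 to 1.86 and 0.96 to 1.01. Reversals touched only values that did not pass the test. Without 1 library these ran from -0.12 to 0.10 for SHMT1 and from -0.091 to 0.048 for MTHFD1 in the control response, from -0.018 to 0.082 for SHMT1 in the XBP1 knockdown response, and from -0.0019 to 0.012 for ALDH1L2 in CARM1 knockout against control with tunicamycin, which was -0.0051 with all libraries in one fit. In XBP1 knockdown against control they ran from -0.16 to 0.0042 for PSAT1 with vehicle, and from -0.011 to 0.063 for SHMT2 and from -0.0043 to 0.12 for MTHFD1 with tunicamycin. In the XBP1 knockdown interaction they ran from -0.069 to 0.15 for SHMT1 and from -0.12 to 0.0032 for MTHFD1L. Same-numbered libraries did not deviate together (r from -0.048 to 0.0387). These correlations cannot show whether same-numbered libraries were cultured or processed together. A replicate block gave 7, 8 and 7 called genes for the tunicamycin responses, 8 and 7 for CARM1 knockout, 2 and 4 for XBP1 knockdown and 4 and 1 for the interactions, the same numbers as without it. Of all genes the block gave 3825, 3509 and 3117 higher and 3443, 3225 and 3074 lower for the tunicamycin responses. For CARM1 knockout it gave 6379 and 6459 higher and 6235 and 6146 lower. For XBP1 knockdown it gave 313 and 1304 higher and 476 and 1525 lower. For the interactions it gave 1714 and 39 higher and 2033 and 244 lower. The cause of the moved counts was not tested.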

Other observations

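Other regulators of serine and one-carbon genes were listed. NFE2L2, which codes for the transcription factor NRF2 of the antioxidant response, rose with tunicamycin from 60.4 to 99.3 CPM in control cells (log2 fold change 0.73, edgeR adjusted p = 3.48e-07), by 0.80 in CARM1 knockout and by 0.82 in XBP1 knockdown cells. MYC did not pass the test in control cells (18.4 to 20.5 CPM, 0.16, edgeR adjusted p = 0.261), while it rose by 0.93 in CARM1 knockout cells, where the interaction was 0.75 (edgeR adjusted p = 0.00194), and by 0.35 in XBP1 knockdown cells, where the interaction of 0.19 did not pass the test (edgeR adjusted p = 0.650). MTHFD2L, the mitochondrial paralog of MTHFD2, named here after its values were seen, did not pass the test in control cells (14.1 to 12.2 CPM, -0.19) and fell in XBP1 knockdown cells (16.1 to 11.9 CPM, -0.45, edgeR adjusted p = 0.00527).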
